A study of Mus musculus with 9 samples.

Results

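The 6 genes described here belong to the ErbB (epidermal growth factor receptor) family of receptors and ligands. They are the receptor genes Egfr, Erbb2 and Erbb3, the neuregulin genes Nrg1 and Nrg2, and Hbegf, the gene of heparin-binding EGF-like growth factor. They were found by symbol in the table of expression values, where each of the 6 has 1 of 84809 rows. Expression was measured by RNA sequencing of dermal cells of newborn mice, in 9 libraries, 3 from each of 3 flow cytometry gates on CD49f (integrin α6): CD49f-neg, CD49f-low and CD49f-high. All 3 groups carried Krt14 cre, a recombinase under the promoter of a basal keratinocyte keratin, and the Rosa26-mTmG fluorescent reporter. The groups differ in the gate alone, and the labels call all of them mesenchymal cells, taken directly from the skin with no culture. The labels do not say whether the replicates came from separate animals, so p-values measure the spread between these libraries, which may be technical.

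ErbB receptors are tyrosine kinases that act as pairs. EGFR binds EGF-type ligands such as HB-EGF, ERBB3 binds neuregulins, and ERBB2 has no known ligand of its own and serves as the preferred partner of the others, while ERBB3 has little kinase activity and depends on its partner. In skin, EGFR signalling is known from keratinocytes and hair follicles, and neuregulin signalling through ERBB2 and ERBB3 from Schwann cells, the glia of peripheral nerve, and from the melanocyte lineage. Most ligands are made as membrane proteins that are shed by ADAM metalloproteases.

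Levels are in FPKM, as deposited: fragments scaled to transcript length and to the mapped fragments of the library. A level is given as the mean ± SD over the 3 libraries of a gate. Differences are in log2(FPKM + 1), a scale on which changes at low FPKM come out too small. They were tested with limma over the 20523 rows that reached 1 FPKM in at least 3 libraries, and a row was called at an adjusted p under 0.05. Of the 6 genes, 4 entered the test (Egfr, Erbb2, Erbb3 and Hbegf). Nrg1 and Nrg2 stayed below 1 FPKM in all 9 libraries and were not part of it.

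The libraries had an estimated depth of 23.7 to 27.3 fragments per kilobase at 1 FPKM. The gates followed the sorted antigen: Itga6, the gene of CD49f, rose by 2.14 log2 units from CD49f-neg to CD49f-low (limma adjusted p = 7.36e-05) and by 1.67 from CD49f-low to CD49f-high (adjusted p = 0.000282). The mesenchymal label was checked with fibroblast genes. Col1a1, the main collagen chain, was at 5690 to 7463, 2331 to 2728 and 1675 to 2738 FPKM in the negative, low and high libraries, and Vim, the mesenchymal filament vimentin, at 173 to 272.6 over all 9. Other fibroblast genes differed more between the gates. Mean FPKM in the negative, low and high gates were 12.5, 5.51 and 1.45 for Twist2 and 370, 173 and 85.7 for Lum. Pdgfrb went the other way, at 19.9, 17.8 and 110. The immune marker Ptprc did not exceed 0.0107 FPKM, but other immune genes were detected. Cd68 was at 1.33 to 3.25 FPKM over all 9 libraries, and Cpa3 reached 3.94 in CD49f-high replicate 1. The summed FPKM of 12 immune genes was 2.34 to 3.97 in CD49f-neg, 4.04 to 6.42 in CD49f-low and 4.11 to 8.04 in CD49f-high. Genes of other cell types were present as well. The summed FPKM of 12 melanocyte genes was 6.25 to 6.94 in CD49f-neg, 466 to 576 in CD49f-low and 26.6 to 43.7 in CD49f-high. Ednrb was the largest single part of it in CD49f-high, at 10.2, 25.6 and 21.9 FPKM in replicates 1, 2 and 3. In CD49f-neg, Ednrb and Mitf held most of it, at 3.10 and 2.05 FPKM on average. Of the 18 Schwann cell genes, 6 or 7 reached 1 FPKM in a CD49f-neg library, 12 or 13 in a CD49f-low library and 16 or 17 in a CD49f-high library. In bulk samples such as these, fewer cells of a type and less RNA per cell cannot be told apart. Replicate 1 of each gate lay apart from replicates 2 and 3 on the third principal component, so the Erbb3 result, which changed without it, is given with and without it, and the pathway genes named below whose calls were lost without it are given with their values there.

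The 3 receptors are paralogs, and the kinase domain is the part in which they are most alike. A 45-base coding stretch over its catalytic loop is shown for each, to let the reader see how far the transcripts can be told apart by sequence. Each stretch lies within exon 21 of a GENCODE M21 transcript on GRCm38, at chr11:16904323-16904367 on the plus strand for Egfr, at chr11:98434232-98434276 on the plus strand for Erbb2 and at chr10:128572527-128572571 on the minus strand for Erbb3. Capitals mark the bases that all 3 genes share.
Egfr: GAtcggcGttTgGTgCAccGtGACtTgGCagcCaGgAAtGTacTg
Erbb2: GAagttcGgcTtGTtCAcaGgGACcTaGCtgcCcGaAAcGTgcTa
Erbb3: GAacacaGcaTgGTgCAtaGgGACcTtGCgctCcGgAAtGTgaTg
In this conserved stretch 22 of 45 bases were the same in all 3 genes, and a pair of genes shared 27 or 28. Over the whole transcripts the longest exact run shared by a pair was 20 bases (Egfr and Erbb2), against 14 for Egfr and Erbb3 and 16 for Erbb2 and Erbb3.

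Erbb3 separated CD49f-neg from both positive gates. It was close to 0 in CD49f-neg and was the most abundant of the 6 genes in CD49f-low. Between the negative gate and the low gate its mean FPKM rose 111-fold, and between the negative and the high gate 183-fold. The size of these folds is uncertain, since the CD49f-neg values rest on few reads, an estimated 8.50 to 29.0 fragments per library. The gene (row MERGE.5472, GRCm38 chromosome 10, 128567523 to 128589652, minus strand) encodes the neuregulin receptor with the weak kinase. The 3 CD49f-neg libraries were at 0.109, 0.184 and 0.0518 FPKM, the CD49f-low libraries at 11.2, 12.3 and 14.8, and the CD49f-high libraries at 7.73, 25.2 and 30.2. All 6 positive libraries lay above all negative ones, a pattern that 34.8% of tested rows showed for CD49f-low and 22.5% for CD49f-high. The CD49f-low libraries lay close together, while CD49f-high replicate 1 was below every CD49f-low library and replicates 2 and 3 were above them. The difference was 3.62 log2 units (SE 0.39, limma adjusted p = 0.000327) from CD49f-neg to CD49f-low and 4.11 (SE 0.39, adjusted p = 8.03e-05) from CD49f-neg to CD49f-high. These comparisons share the CD49f-neg libraries. Between the high and the low gate the difference of 0.50 did not pass the test (95% confidence interval -0.39 to 1.38, limma adjusted p = 0.425). Without CD49f-high replicate 1 it was 1.07 and passed (limma adjusted p = 0.00181), and without replicate 1 of all gates it was 0.98 (adjusted p = 0.00990).

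**Figure D1:**
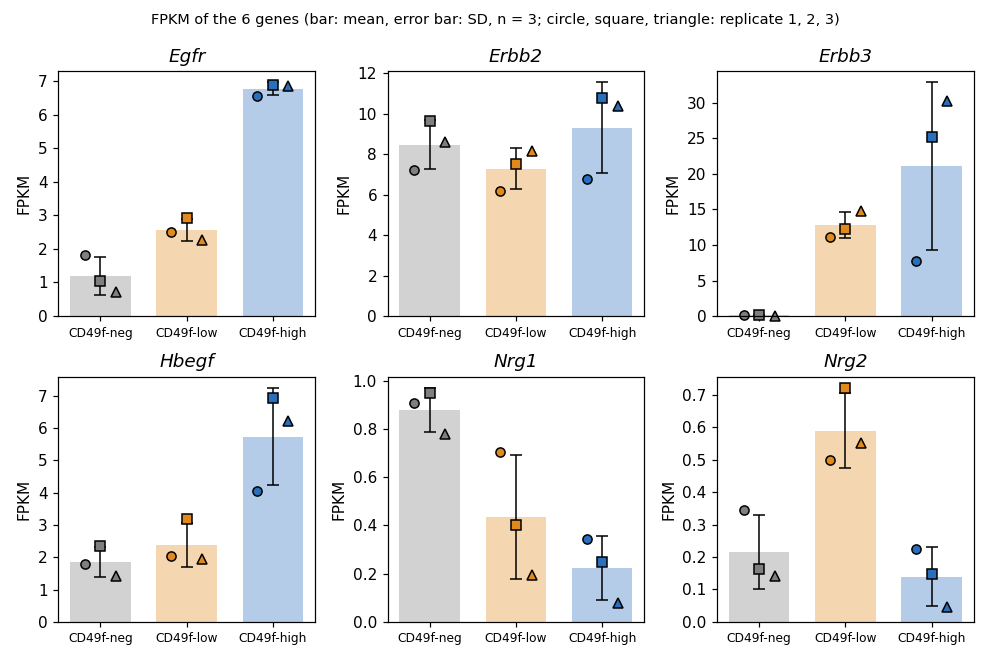
FPKM (y axes, each from 0) of the 6 genes in the CD49f-neg, CD49f-low and CD49f-high gates (x axes). Bars are means, error bars SDs over 3 libraries, and circles, squares and triangles are replicates 1, 2 and 3; Erbb3 stood at 0.115, 12.7 and 21.1 FPKM on average, and Erbb2 between 7.27 and 9.31.

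Erbb3 moved beside different marker genes in the 2 positive gates. In CD49f-low, pigment genes were high and Cdh19, a cadherin of the Schwann cell lineage, was low. Dct, a melanin synthesis enzyme, was at 138, 189 and 182 FPKM in the CD49f-low libraries, and Pmel, the melanosome fibril protein, at 186, 222 and 189.5. Cdh19 was at 1.23, 0.770 and 0.931 FPKM there. In CD49f-high, Dct was at 4.02, 4.75 and 1.65 FPKM and Cdh19 at 1.91, 6.25 and 8.88. The 2 positive gates did not overlap for Dct or for Cdh19. CD49f-high replicate 1, the lowest for Erbb3, was also the lowest of the high libraries for Cdh19. It was the lowest of the 3 high libraries in 14 of the 16 Schwann cell rows tested, and in 4 of the 4 members tested. For Egfr the gap was small (6.56 against 6.89 and 6.86 FPKM). In other lists it was the lowest in 7 of 12 fibroblast rows and 2 of 12 melanocyte rows. The same held for 1 of 12 pericyte and smooth muscle rows and 0 of 12 keratinocyte rows. The share over all tested rows was not counted. The summed FPKM of the Schwann cell list was 83.8 to 112 in CD49f-neg, 109 to 115 in CD49f-low and 122 to 381 in CD49f-high, but Pmp22, a glial gene also expressed by fibroblasts, held most of it in the negative gate (65.6 to 91.6 FPKM). The part of these cell types in the Erbb3 result was not tested.

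The genes whose profile over the 9 libraries was most like that of Erbb3 were ranked by the root-mean-square difference of the centred log2(FPKM + 1) values, among 10574 candidate rows. The nearest was Sox10, a transcription factor of neural crest, glia and melanocytes, at 0.38 log2 units, against an SD of 2.01 for Erbb3 itself. Sox10 was at 0.0952, 0.0564 and 0.0946 FPKM in CD49f-neg, at 20.7, 21.9 and 26.7 in CD49f-low, and at 7.46, 32.5 and 44.9 in CD49f-high. It was thus near 0 in the same gate and lowest of the high libraries in replicate 1. The next were the collagen chain Col11a1 (0.63), Igfbp4, which binds insulin-like growth factors (0.70), the protease inhibitor Serpine2 (0.72) and the proteoglycan Agrn (0.74). Ranked by Pearson correlation instead, only Sox10 of these 5 stayed among the first 5.

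**Figure D2:**
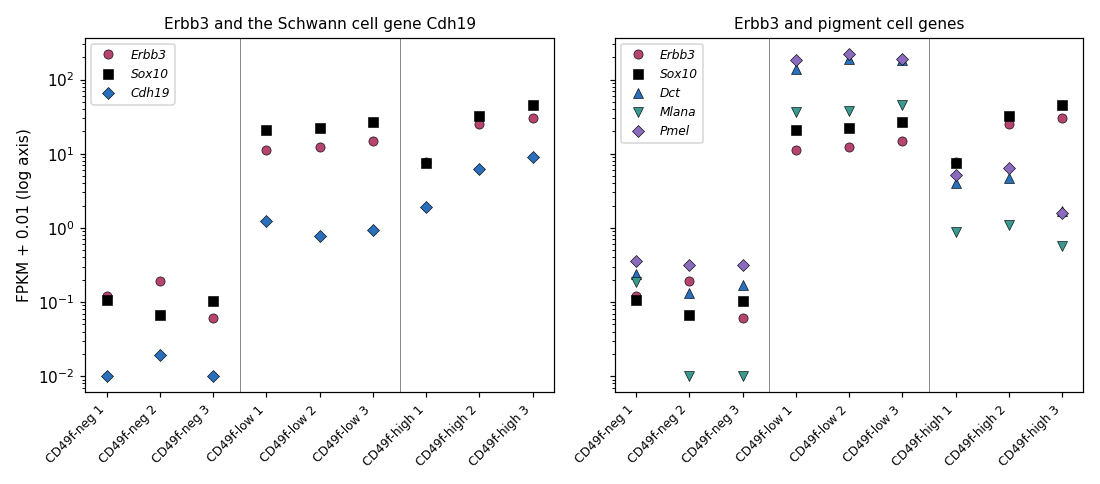
FPKM + 0.01 on a log axis for Erbb3 and Sox10 in each library, with the Schwann cell gene Cdh19 (left) and 3 pigment cell genes (right). Points at 0.01 are genes listed at 0. Erbb3 and Sox10 have similar profiles over the gates, with Sox10 above Erbb3 in each CD49f-low library. Cdh19 is highest in CD49f-high, and Dct, Mlana and Pmel are highest in CD49f-low.

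Egfr rose with the gates, from CD49f-neg through CD49f-low to CD49f-high. The EGF receptor gene (row MERGE.5777, chromosome 11, 16752203 to 16918158, plus strand) had 1.83, 1.06 and 0.728 FPKM in the CD49f-neg libraries, 2.50, 2.91 and 2.26 in the CD49f-low libraries and 6.56, 6.89 and 6.86 in the CD49f-high libraries. No 2 gates overlapped, and the 3 CD49f-high libraries were the most alike. Of all tested rows, 34.8% had every low library above every negative one, 22.5% every high above every negative one and 10.3% every high above every low one. The means of 1.21 ± 0.565, 2.56 ± 0.325 and 6.77 ± 0.185 FPKM correspond to a 2.12-fold step into CD49f-low and a further 2.65-fold step into CD49f-high. The difference between the high and the low gate was 1.13 log2 units (SE 0.17, limma adjusted p = 0.00186), and between the high and the negative gate 1.85 (SE 0.17, adjusted p = 6.70e-05). The step from CD49f-neg to CD49f-low, 0.72 (SE 0.17, limma adjusted p = 0.0232), depended on the settings. It missed the threshold after median-of-ratios scaling (0.54, adjusted p = 0.0851) and quantile normalization (0.47, adjusted p = 0.0979), with no filter (adjusted p = 0.0613), and without CD49f-neg replicate 2 (0.0681) or 3 (0.0778) or CD49f-low replicate 1 (0.0564), 2 (0.0862) or 3 (0.0508). The row also covers 3 unnamed noncoding loci, and Egfros lies antisense within the gene. Counting by strand is not stated, so these cannot be separated from Egfr.

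Keratinocytes are a known site of Egfr, and their genes were low but not absent. The summed FPKM of the 16 keratinocyte genes was 4.53 to 5.19 in CD49f-neg, 48.4 to 49.5 in CD49f-low and 37.9 to 84.4 in CD49f-high. The row that holds Krt14 and 5 other genes was at 0.214 to 0.270, 1.24 to 1.72 and 4.77 to 9.87 FPKM. The cadherins Cdh1 and Cdh3, which other cell types also express, held most of the sum in CD49f-low, at 18.7 ± 2.71 and 10.3 ± 2.46 FPKM, and were lower in CD49f-high, at 3.54 ± 1.37 and 1.57 ± 0.567. The summed FPKM of 12 genes of pericytes and smooth muscle also followed the gates, at 33.8 to 47.6, 98.1 to 175 and 814 to 1475. Single genes of that list did not all rise in each step. Kcnj8 was at 7.23, 3.37 and 25.5 FPKM on average and Abcc9 at 2.50, 2.21 and 37.7. The part of keratinocytes or of pericytes and smooth muscle in the Egfr result was not tested. The 5 rows most like Egfr were Ttyh2, a chloride channel family member (0.07 log2 units from Egfr, which had an SD of 0.83), Micall2 (0.11), the scaffold protein Akap12 (0.14), the ephrin receptor Epha2 (0.15) and the RNase Zc3h12a (0.16). Of these, 2 stayed among the first 5 by Pearson correlation.

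Erbb2, the gene of the shared partner receptor (row MERGE.7866, chromosome 11, 98412470 to 98437716, plus strand), was present in all gates at levels that overlapped. Its FPKM were 7.20, 9.64 and 8.59 in CD49f-neg, 6.16, 7.50 and 8.16 in CD49f-low and 6.75, 10.8 and 10.4 in CD49f-high. The 3 gates overlapped, and replicate 1 was the lowest in each. No difference passed limma's test, and the intervals leave room for modest changes. They were -0.19 for CD49f-low minus CD49f-neg (95% confidence interval -0.60 to 0.21, adjusted p = 0.477), 0.11 for CD49f-high minus CD49f-neg (-0.30 to 0.51, adjusted p = 0.742) and 0.30 for CD49f-high minus CD49f-low (-0.11 to 0.71, adjusted p = 0.295). The difference between the high and the negative gate turned to -0.0037 without CD49f-high replicate 2. Mien1 overlaps the gene on the other strand, so its reads and those of Erbb2 cannot be told apart where they overlap.

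Set side by side, the receptor makeup of the CD49f-neg libraries differed from that of the positive gates mainly through Erbb3. Because FPKM are per length, the levels of different genes can be compared. In CD49f-neg, Erbb2 made up 78.8% to 91.7% of the summed FPKM of the 3 receptors and Erbb3 0.553% to 1.70%. In CD49f-low, Erbb3 made up 54.2% to 58.6% and Erbb2 31.0% to 33.0%, so that Erbb3 stood at 1.64 to 1.82 times Erbb2. That ratio was 0.00603 to 0.0191 in CD49f-neg. In CD49f-high it was 1.15 in replicate 1 and 2.34 and 2.91 in replicates 2 and 3. Egfr relative to Erbb2 rose from 0.0848 to 0.254 in CD49f-neg to 0.277 to 0.406 in CD49f-low and 0.639 to 0.972 in CD49f-high, without overlap between the gates. These ratios are within a library and do not depend on its scaling.

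**Figure D3:**
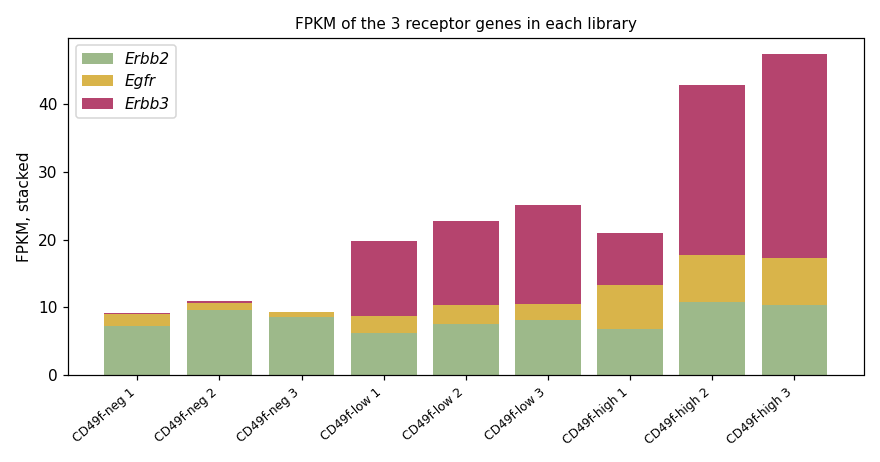
FPKM of Erbb2, Egfr and Erbb3, stacked from 0, in each of the 9 libraries (x axis). Erbb2 lies between 6.16 and 10.8 FPKM throughout, and Erbb3 is near 0 in CD49f-neg and makes up 36.7% to 63.7% of the stack in CD49f-high.

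Hbegf, whose product is a membrane-bound EGFR ligand, stood higher in the high gate than in the others. The gene (row MERGE.21504, chromosome 18, 36504929 to 36515805, minus strand) had 1.80, 2.36 and 1.42 FPKM in CD49f-neg, 2.03, 3.17 and 1.94 in CD49f-low and 4.05, 6.92 and 6.23 in CD49f-high. All high libraries lay above all others, as they did above the low libraries in 10.3% of tested rows, and the negative and low libraries overlapped. The mean of 5.73 ± 1.50 FPKM in CD49f-high was 3.08 times that of CD49f-neg (1.86 ± 0.469) and 2.41 times that of CD49f-low (2.38 ± 0.688). In limma's test the differences were 1.22 log2 units (SE 0.21, adjusted p = 0.00252) and 0.99 (SE 0.21, adjusted p = 0.0111). The difference between CD49f-low and CD49f-neg was 0.24 (95% confidence interval -0.24 to 0.71, adjusted p = 0.456). Stress and dissociation genes were abundant in all gates, with summed FPKM of 1632 to 2878, 2376 to 2767 and 2737 to 3210. Of their 11 tested rows, 4 passed as higher in the high gate than in the negative gate (Zfp36, Fos, Atf3 and Junb) and 1, Zfp36, higher than in CD49f-low, and none passed between CD49f-low and CD49f-neg. Of all rows, 13.9% were higher in high than in negative and 5.93% in high than in low. The count of 4 was 1 when replicate 2 of the high gate was left out and 2 when its replicate 1, or replicate 2 or 3 of CD49f-neg, was, and over all settings it ran from 1 to 6, and that against CD49f-low from 1 to 4. Their part in the Hbegf result was not tested. The rows most like Hbegf (SD 0.61) were the necroptosis effector Mlkl (0.07), Rassf5 (0.12), the transcription factor Tcf15 (0.14), the actin-severing protein Gsn (0.15) and the serpin Serpinb9 (0.16), of which 2 stayed among the first 5 by Pearson correlation.

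The neuregulin genes, which encode ligands of ERBB3 and ERBB4, were low throughout and had different gates as their highest. Nrg1 (row MERGE.44250, chromosome 8, 31814551 to 32884029, minus strand) was at 0.909, 0.949 and 0.777 FPKM in CD49f-neg, 0.705, 0.400 and 0.196 in CD49f-low and 0.342, 0.250 and 0.0772 in CD49f-high. Every negative library lay above every positive one, and the low and high gates overlapped. Nrg2 (row ENSMUSG00000060275, chromosome 18, 36017707 to 36197380, minus strand) was at 0.345, 0.161 and 0.140 FPKM in CD49f-neg, 0.498, 0.721 and 0.552 in CD49f-low and 0.226, 0.148 and 0.0445 in CD49f-high. Its 3 low libraries lay above all others, and the negative and high gates overlapped. CD49f-neg, where Erbb3 was near 0, was the gate with the highest Nrg1. Mean Nrg1 was 2.03 times higher in CD49f-neg than in CD49f-low and 3.94 times higher than in CD49f-high. Mean Nrg2 was 2.74 times higher in CD49f-low than in CD49f-neg and 4.23 times higher than in CD49f-high. Over all 84809 rows, 2.95% lay without overlap lower in CD49f-low than in CD49f-neg and 7.06% lower in CD49f-high than in CD49f-neg, the pattern of Nrg1. For Nrg2, 16.9% were higher in CD49f-low than in CD49f-neg and 13.4% lower in CD49f-high than in CD49f-low. With no filter, limma called Nrg1 between the high and the negative gate (-0.62, adjusted p = 0.0357) and Nrg2 between the high and the low gate (-0.48, adjusted p = 0.0455). Nrg1 between low and negative (-0.40, adjusted p = 0.215) and Nrg2 between low and negative (0.39, adjusted p = 0.117) did not pass. These levels rest on few reads, an estimated 10.7 to 134 fragments per library for Nrg1 and 3.47 to 57.0 for Nrg2, and both genes have several transcripts. The row of Nrg1 also covers 2 noncoding loci, and a noncoding gene lies antisense to Nrg2. Beside them, the summed FPKM of 12 fibroblast genes was 14269 to 17373 in CD49f-neg, 6004 to 7260 in CD49f-low and 4586 to 6575 in CD49f-high. Collagen rows held most of it, with Col1a1 at 6505, Col3a1 at 5310 and Col1a2 at 2182 FPKM on average in CD49f-neg. Single genes of that list did not all fall in each step. Mean FPKM in the negative, low and high gates were 109, 110 and 79.2 for Thy1 and 208, 214 and 259 for Vim. The part of fibroblasts in the Nrg1 result was not tested.

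Ordered within a gate, the levels were as follows. In CD49f-neg, Erbb2 was highest, followed by Hbegf and Egfr, whose libraries overlapped, then Nrg1, whose range lay within that of Egfr, and last Nrg2 and Erbb3, which overlapped each other. In CD49f-low, Erbb3 was above Erbb2, and Erbb2 above Egfr and Hbegf, which overlapped. Nrg2 and Nrg1 came last and overlapped. In CD49f-high, Erbb3 overlapped Erbb2 because of replicate 1, Erbb2 overlapped Egfr, and Egfr overlapped Hbegf. Nrg1 and Nrg2 were again the lowest and overlapped.

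Counted over the 4 tested genes, Egfr and Erbb3 were called higher in CD49f-low than in CD49f-neg, while 15.4% of all tested rows were called in that comparison, 12.8% as higher and 2.62% as lower. In the high gate against the negative gate, Egfr, Erbb3 and Hbegf were called higher, against 22.1% of all rows (13.9% higher and 8.27% lower). That split of 2844 rows higher and 1697 lower became 2480 and 2232 after median-of-ratios scaling and 2186 and 2315 after quantile normalization. In the high gate against the low gate, Egfr and Hbegf were called higher, against 16.4% of all rows (5.93% higher and 10.5% lower). The moderated F test over the gates called Erbb3 (adjusted p = 0.000113), Egfr (0.000153) and Hbegf (0.00417) in limma, but not Erbb2 (0.399), and 28.5% of all rows. The median difference of all rows was 0.21 log2 units for CD49f-low minus CD49f-neg, 0.07 for CD49f-high minus CD49f-neg and -0.15 for CD49f-high minus CD49f-low. Median-of-ratios scaling brought these to 0.01, -0.00 and -0.01.

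**Figure D4:**
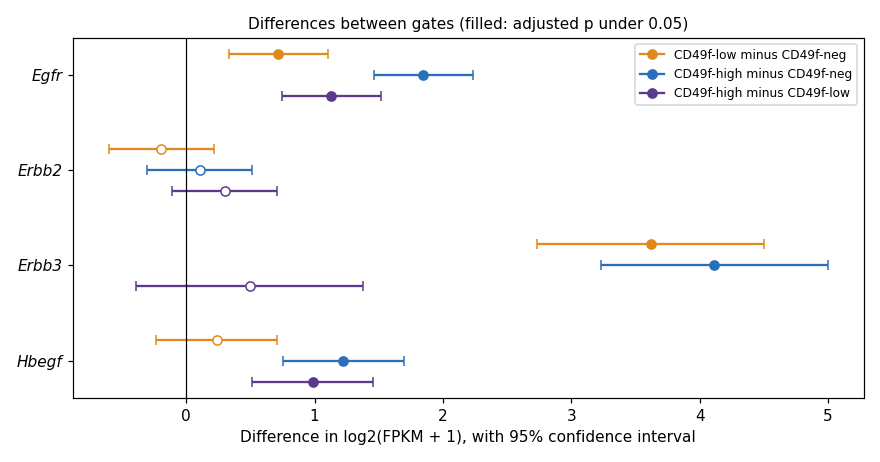
Differences in log2(FPKM + 1) between gates (x axis) for the 4 tested genes (y axis), with 95% confidence intervals from limma. Filled points passed at an adjusted p under 0.05. Erbb2 crosses 0 in all 3 comparisons, Egfr in none, Erbb3 only for CD49f-high minus CD49f-low and Hbegf only for CD49f-low minus CD49f-neg.

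The other receptor and the other ligands of the family were low. Of 9 such genes (Erbb4, Nrg3, Nrg4, Egf, Tgfa, Areg, Ereg, Btc and Epgn), none entered the test. Erbb4, the other neuregulin receptor, was at 0.00402 to 0.0362 FPKM over the 9 libraries, with its 3 CD49f-low libraries the highest. Among the neuregulins, Nrg3 did not exceed 0.0656 FPKM and Nrg4 did not exceed 0.254. Among the EGFR ligands, only Areg, the amphiregulin gene, reached 1 FPKM, at 1.23 in CD49f-high replicate 2, and it was between 0.157 and 0.582 in the other libraries. Tgfa was at 0.0283 to 0.121 in CD49f-neg, 0.206 to 0.394 in CD49f-low and 0.150 to 0.551 in CD49f-high. Ereg reached 0.722 in CD49f-neg replicate 1, Epgn 0.567 in CD49f-high replicate 1, Egf 0.264 in CD49f-low replicate 3 and Btc 0.172 in CD49f-high replicate 2. Hbegf was above each of these 8 ligands in every library.

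Of the genes that release the ligands from the membrane, 7 of 9 tested rows passed as higher in the high than in the negative gate and none as lower, with a median of 0.81 log2 units against 0.07 for all rows, 4 were higher in CD49f-high than in CD49f-low (median 0.66 against -0.15) and 3 in CD49f-low than in CD49f-neg (median 0.29 against 0.21). The metalloprotease Adam19 rose in each step, from 3.32 ± 0.376 to 6.88 ± 0.627 and 14.2 ± 0.441 FPKM, with differences of 0.87 (limma adjusted p = 0.000679) and 0.95 (adjusted p = 0.000343). Rhbdf2, an inactive rhomboid that escorts ADAM17 to the surface, rose alike from 1.92 ± 0.0870 to 4.10 ± 0.238 and 7.10 ± 1.04 FPKM. Frmd8, a binding partner of the inactive rhomboids, stood at 3.12, 4.87 and 6.39 FPKM on average, and the metalloprotease Adam9 at 12.4, 13.6 and 22.8. Adam17 itself, the main sheddase of HB-EGF, was at 6.11 ± 0.716, 7.47 ± 0.367 and 7.59 ± 0.338 FPKM and passed in no comparison (0.28 for CD49f-high minus CD49f-neg, limma adjusted p = 0.0998). Of all rows, 13.9%, 5.93% and 12.8% were called higher in these comparisons. Between low and negative the call of Frmd8 was lost in 9 of 18 settings: under either scaling, with no filter, without CD49f-neg replicate 1 or 3, without each CD49f-low replicate and without replicate 1 of all gates (0.41, limma adjusted p = 0.0868). The row of Adam12, called between high and low (0.98), holds a second gene.

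Negative regulators of the receptors moved in both directions. Of 13 rows tested, 3 were higher in CD49f-low than in CD49f-neg, 5 were higher and 2 lower in the high than in the negative gate, and 1 was higher and 3 lower in the high than in the low gate. The medians were 0.22, 0.49 and 0.05 log2 units, against 0.21, 0.07 and -0.15 for all rows. Of all rows, 12.8% were higher in the first comparison, 13.9% higher and 8.27% lower in the second and 5.93% higher and 10.5% lower in the third. Lrig1 and Lrig3, transmembrane proteins with leucine-rich repeats, fell from CD49f-neg to CD49f-high, and these and Cblb fell from CD49f-low to CD49f-high. Lrig1, which is known to lower ErbB receptor levels, stood at 13.5 ± 2.66, 11.7 ± 3.09 and 4.15 ± 0.399 FPKM, and fell by 1.48 log2 units from CD49f-neg to CD49f-high (limma adjusted p = 0.000542). Lrig3 went from 11.2 ± 0.649 to 8.41 ± 0.886 and 4.002 ± 0.543 FPKM and fell by 1.29 (limma adjusted p = 6.73e-05). The ubiquitin ligase Cblb stood at 1.55 ± 0.232, 6.38 ± 0.241 and 2.42 ± 0.641 FPKM and fell by 1.12 log2 units from CD49f-low to CD49f-high. The phosphatase Ptpn1 was at 1.94, 3.44 and 4.75 FPKM. The row of the phosphatase Ptprj, which was called in both positive gates against CD49f-neg, also holds a predicted gene. Between high and negative, the count of 5 higher fell to 2 when replicate 1 or 3 of CD49f-high, or replicate 3 of CD49f-neg, was left out. Socs5, the 1 gene higher in the high than in the low gate, lost its call in 10 of 18 settings. Ptpn1 lost its call between low and negative in 3 of 17.

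Of the adaptors and kinases that carry the signal inward, 25 rows were tested: 4 were higher and none lower in CD49f-low than in CD49f-neg, 4 higher and none lower in the high than in the negative gate, and 1 higher and 2 lower in CD49f-high than in CD49f-low. These counts stood beside 12.8% of all rows higher in the first comparison, 13.9% in the second, and 5.93% higher and 10.5% lower in the third, so the shares were near those of all rows. The docking proteins Gab1 and Gab2 were called higher in both positive gates against CD49f-neg. Gab2 went from 3.71 ± 0.146 to 7.46 ± 1.37 and 9.95 ± 0.323 FPKM and Gab1 from 3.34 ± 0.633 to 5.23 ± 0.785 and 6.78 ± 0.184. The steps of Gab1 and of Pik3r1, a PI3-kinase regulatory subunit, into CD49f-low each lost their call in 9 of 18 settings. Both did so under either scaling, with no filter and without CD49f-neg replicate 2 or 3 or CD49f-low replicate 1 or 3. Gab1 did so also without CD49f-low replicate 2 and with only the 6 libraries compared, and Pik3r1 without CD49f-neg replicate 1 and without replicate 1 of all gates (0.46, limma adjusted p = 0.0508). The count of 4 higher in CD49f-low was 2 when any 1 of the 4 libraries that both genes depended on was left out. Pik3cb, a PI3-kinase catalytic subunit, was highest in CD49f-low, at 2.55 ± 0.321 FPKM against 1.06 ± 0.132 and 0.823 ± 0.140. Pik3cb and Plcg1 were the 2 lower in CD49f-high than in CD49f-low. Plcg1 lost that call after median-of-ratios scaling and without replicate 1 of all gates (-0.52, limma adjusted p = 0.0543). Src, the 1 higher, lost its call in 4 of 18 settings. Stat3 stood at 12.8 ± 2.43 FPKM in CD49f-high against 5.06 ± 1.72 in CD49f-neg (1.21 log2 units, limma adjusted p = 0.00176).

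Of the genes known to be induced by ERK, the kinase at the end of one ErbB pathway and of many other receptors' pathways, 8 of 15 tested rows were higher and none lower in CD49f-low than in CD49f-neg (median 0.83 log2 units against 0.21 for all rows), and 8 were higher and none lower in the high than in the negative gate (median 0.73 against 0.07). Between high and low, 2 were higher and none lower (median -0.00 against -0.15). Of all rows, 12.8%, 13.9% and 5.93% were higher in these comparisons. Over 18 alternative settings the list's counts of higher rows ran from 5 to 9, from 5 to 10 and from 2 to 3. Dusp4, an ERK phosphatase, rose from 1.64 ± 0.338 FPKM in CD49f-neg to 9.47 ± 1.45 in CD49f-low and 8.46 ± 2.18 in CD49f-high. The ETS factor gene Etv5 stood at 1.56 ± 0.0787, 3.57 ± 0.412 and 3.27 ± 0.506 FPKM, and Etv1 at 0.458 ± 0.0101, 1.64 ± 0.314 and 1.72 ± 0.249. Spry4, a feedback inhibitor, and Phlda1 were the 2 that also rose from CD49f-low to CD49f-high. Spry4 stood at 3.68 ± 2.72, 8.21 ± 2.46 and 46.7 ± 18.4 FPKM and Phlda1 at 17.9 ± 7.63, 55.4 ± 4.93 and 132 ± 24.2. The stress and dissociation genes given beside Hbegf include further ERK-responsive genes, and their part in these counts was not tested.

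**Figure D5:**
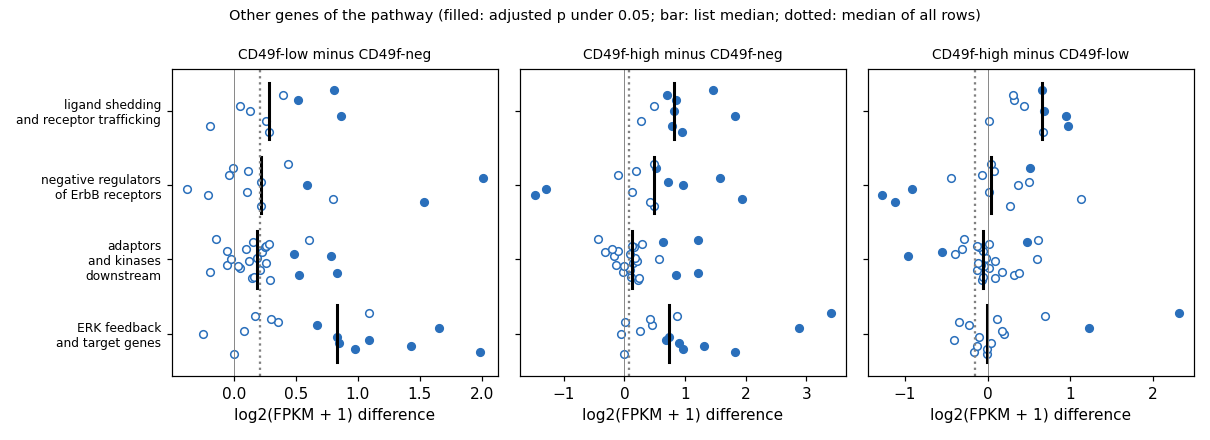
Differences in log2(FPKM + 1) (x axes) of each tested gene of the 4 pathway lists (y axis) in the 3 comparisons. Filled points passed at a limma adjusted p under 0.05, black bars are list medians and the dotted line is the median of all rows. In CD49f-high minus CD49f-neg the shedding genes have a median of 0.81 and the ERK-induced genes of 0.73.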

How the data were processed

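The authors deposited 1 table of FPKM, 1 column per library. The tools were FastQC, TopHat2 and StringTie and the build GRCm38, per the submitters' processing notes; versions, order, filters and strand are not given in the sources used here. Per the file headers, a row can cover several annotated genes, which leaves the gene uncertain. The depth was estimated from single-exon genes, whose low FPKM lie at even steps (97.8% to 98.8% within 0.15 of a step).

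FPKM were used as log2(FPKM + 1), for rows with at least 1 FPKM in at least 3 libraries. Limma 3.58.1 in R 4.3.3 fitted the means of the 3 gates over all 9 libraries (empirical Bayes with a trend, 6 residual degrees of freedom), with Benjamini-Hochberg adjustment over 20523 rows. The method was also run on simulated data with independent noise in each library. That run lacked the link between same-numbered libraries described next, so it cannot show how the method behaves under it. Replicate numbers pair the libraries by their values: same-numbered libraries deviated from the gate means together (correlations of 0.252 to 0.520 in 9 pairs) and others less (-0.453 to 0.118 in 18). The labels give no source for the numbers, and the replicate block was used as an alternative. Other alternatives were the pseudocount (0.1), the filter (none, or 5 FPKM), 2 scalings, no trend, a fit on the 6 libraries compared, and leaving out libraries.

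The members and the gene lists were chosen with earlier results of these data known. All 6 members are named. From each list the text names up to 4 called genes with the smallest adjusted p per comparison, or a part of them. Adam17 and Cdh19 were named besides, after their values were seen. Marker genes such as Vim, Ptprc, Cd68, Pmp22, Kcnj8, Abcc9, Cdh1 and Cdh3 were named for their levels, whether or not this rule covered them. Some marker genes are not reported here. Coding sequences came from GENCODE M21 (GRCm38). Python 3.11.15, pandas 2.3.3 and matplotlib 3.10.9 handled tables and figures.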

Additional observations from a re-analysis of the deposited data

How the results depend on the processing

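Of 280 values of the 4 tested genes under alternatives, 269 kept their direction and their side of the threshold. The exceptions were the Egfr step into CD49f-low and the Erbb3 difference between the positive gates, given beside those results, and Erbb2 between the high and the negative gate, which ranged from -0.0037 (without CD49f-high replicate 2) to 0.30 when libraries were left out. Rows called for low minus negative numbered 3160 (2623 higher, 537 lower). They were 1358 with the filter of 5 FPKM, which tests fewer rows, 2044 after quantile normalization (1040 higher, 1004 lower), 1117 higher and 1093 lower after median-of-ratios scaling, 5806 with the replicate block and 1614 to 3764 when libraries were left out. For high minus negative, 4541 (2844 higher, 1697 lower) became 2480 higher and 2232 lower after median-of-ratios scaling, 2186 higher and 2315 lower after quantile normalization, 1911 with that filter and 3232 to 4653 when libraries were left out. For high minus low, 3367 (1216 higher, 2151 lower) became 1323 with that filter, 5309 with the block, 2945 (1614 higher, 1331 lower) after median-of-ratios scaling, 3008 (1577 higher, 1431 lower) after quantile normalization and 2201 to 3585 when libraries were left out. The F test called 5856 rows, 2340 with that filter, 8995 with the block and 4246 to 5932 when libraries were left out. Members called for low minus negative fell from 2 to 1 with no filter and under either scaling, and were 1 to 2 when libraries were left out. For high minus low they fell to 1 with the filter of 5 FPKM, which drops Hbegf, and were 2 to 3 when libraries were left out. The other pathway genes called for high minus low were 22 with the block, and 12 to 17 when libraries were left out. The block changed no call of a tested member. Of 765 values of named pathway genes, 46 lost their call and none changed direction; Frmd8, Gab1, Pik3r1 and Ptpn1 for low minus negative and Socs5, Src and Plcg1 for high minus low were concerned. The cause of these changes was not tested. Nrg1 and Nrg2 lie near the limit of what this depth resolves.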
